A study of Rattus norvegicus with 26 samples.

Results

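Fabp3, Fabp5 and Fabp7 are the fatty acid binding proteins known for their expression in brain, and their RNA levels were compared in the hippocampus of aging rats that differed in dietary vitamin D3. The members were the 3 genes with these symbols out of 14506 genes that had a probe set with a single gene symbol. They were covered by 4 probe sets of the Rat Gene 1.0 ST array of Affymetrix, 1 for Fabp3, 2 for Fabp5 and 1 for Fabp7. All rats were male F344 rats aged 18 months that had eaten a purified diet for 5 to 6 months, with 100 IU of vitamin D3 per kg in the low group (8 rats), 1000 IU in the control group (9 rats) and 10000 IU in the high group (9 rats). Each of the 26 rats gave 1 array of whole hippocampal RNA, and rats are named by diet and by subject number. The rats were housed in pairs in 14 cages, 12 of which had both rats measured, and a tail mark told the cage mates apart. In such a tissue block, fewer cells of a type and less RNA per cell cannot be told apart.

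The set was chosen by measured levels of these same arrays: Fabp3 had been the gene called among the diets when control rat 17 was left out, and the other members belong to its family. The levels of the 3 genes by diet are therefore given as a description, without a test. Tests are read only for the tail mark, for the relations among rats on the same diet and for genes that are not members. The fits by diet over all tested genes also hold the members. Where such a fit calls a member or calls none, nothing is read from that for the members.

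Fatty acid binding proteins are small proteins of the cytoplasm that carry long-chain fatty acids, which dissolve poorly in water, between membranes, enzymes and the nucleus. Fabp7, the brain type, is known from radial glia, astrocytes and neural progenitors and favours omega-3 fatty acids such as docosahexaenoic acid. Fabp5, the epidermal type, occurs in neurons and glia, carries endocannabinoids and can deliver ligands to the nuclear receptor PPAR delta. Fabp3, the heart type, is known from neurons of the adult brain and from heart and skeletal muscle, and favours omega-6 fatty acids such as arachidonic acid. Nuclear receptors that pair with RXR, among them the vitamin D receptor and the PPARs, bind DNA at pairs of short half-sites.

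In the rat assembly GRCr8, RefSeq places Fabp3 on chromosome 5 (147936027 to 147942870), Fabp5 on chromosome 2 (93672451 to 93676186) and Fabp7 on chromosome 20 (37667125 to 37673299). Promoter windows were found in RefSeq for 2 of the 3 members, Fabp3 and Fabp7. Each window ran from 250 bases before to 50 bases after a transcript start and was searched on both strands for the half-site AGGTCA. The sequences below show the bases of the Fabp3 window that precede the annotated gene (GRCr8, chr5:147935875-147936026, plus strand), as the member whose level prompted the choice, and the single half-site match of Fabp7 (GRCr8, chr20:37669398-37669427, plus strand), which lies inside the annotated span of its gene.
Fabp3: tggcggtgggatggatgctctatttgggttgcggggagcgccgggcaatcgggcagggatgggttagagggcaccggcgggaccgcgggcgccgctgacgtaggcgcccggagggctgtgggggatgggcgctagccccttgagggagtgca
Fabp7: ctgggaggatctTGACCTactctgctaacc
The capitals mark the half-site, which reads AGGTCA on the opposite strand and starts 196 bases before the transcript start. The window of Fabp3 held 0 matches. Of 33469 promoter windows of the same length, 16.2% held this half-site, so a match is common. Neither window held AGGTCA followed on the same strand by a second AGGTCA after any 3 bases, as 0.0239% of windows did, or after any 1 base, as 0.0538% did. These letters describe the windows and say nothing of binding.

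The values are log2 intensities, so a difference of 1 means a doubling. A gene was tested if its mean over the arrays reached 6.94, the median probe set's mean, and 8485 genes did, among them all 3 members. Levels of different probe sets are not compared with each other, because probes differ in brightness. The 2 probe sets of Fabp5 held the same value in all 26 arrays, with a largest difference of 0, so the second gives no separate check of the first. RefSeq also lists 2 pseudogenes of Fabp5, Fabp5-ps2 on chromosome 1 and Fabp5-ps3 on chromosome 20. Whether the probes also measure these copies was not tested, and the values of Fabp5 are uncertain to that extent.

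Before any result is read, control rat 17 stood apart by how often it was extreme among the control rats. Its array ranked lowest of all 26 in quality weight, but low rat 7 had the same rounded weight (0.474). Its mean correlation with the others was also the lowest (0.9965, against a highest of 0.9977). Low rat 2 (0.9967) and high rat 19 (0.9968) were close to it. Rat 17 was thus barely distinct on these array measures. It was the highest or the lowest of the 9 control rats in 34.7% of the tested genes, against 15.5% to 26.0% for the other control rats. Results that turn on this rat are given with and without it.

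Fabp3 had its highest mean on the high diet, and 1 control rat, rat 17, lay above all high-diet rats. In the low group its level ran from 7.63 (rat 5) over a median of 7.86 to 8.02 (rat 3), in the control group from 7.67 (rat 14) over 7.77 to 8.41 (rat 17), and in the high group from 7.90 (rat 21) over 8.03 to 8.13 (rat 23). Each of the 9 high-diet rats lay above the mean and above the median of the low and of the control group, and 5 of the 9 lay above every low-diet rat. Rat 17 lay above every rat of the study, and the next control rat, its cage mate rat 16, was at 7.85. For Fabp3, rat 17 was 0.65 above the mean of the other 8 control rats. Of the 8485 tested genes, 47 lay further above that mean in rat 17 than Fabp3 did.

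Fabp3 averaged 7.84 ± 0.12 in the 8 low-diet rats, 7.83 ± 0.23 in the 9 control rats and 8.02 ± 0.08 in the 9 high-diet rats (SD). High minus low was +0.18 (SE 0.07), a ratio of 1.13, and high minus control was +0.19 (SE 0.07), a ratio of 1.14. Low minus control was +0.011 (SE 0.07). Without rat 17 the control mean was 7.76 ± 0.06 (SD, n = 8), high minus control was +0.26 (SE 0.04), a ratio of 1.20, and low minus control was +0.084 (SE 0.043). The SD of the control group thus fell from 0.23 to 0.06 when this rat was left out. Without it the high and control groups of Fabp3 did not overlap, which held with high above control for 1 of the 8485 tested genes (0.0118%), Fabp3 itself, and with high below for 0. This is the contrast that led to the choice of the gene, so nothing is read from that share.

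**Figure D1:**
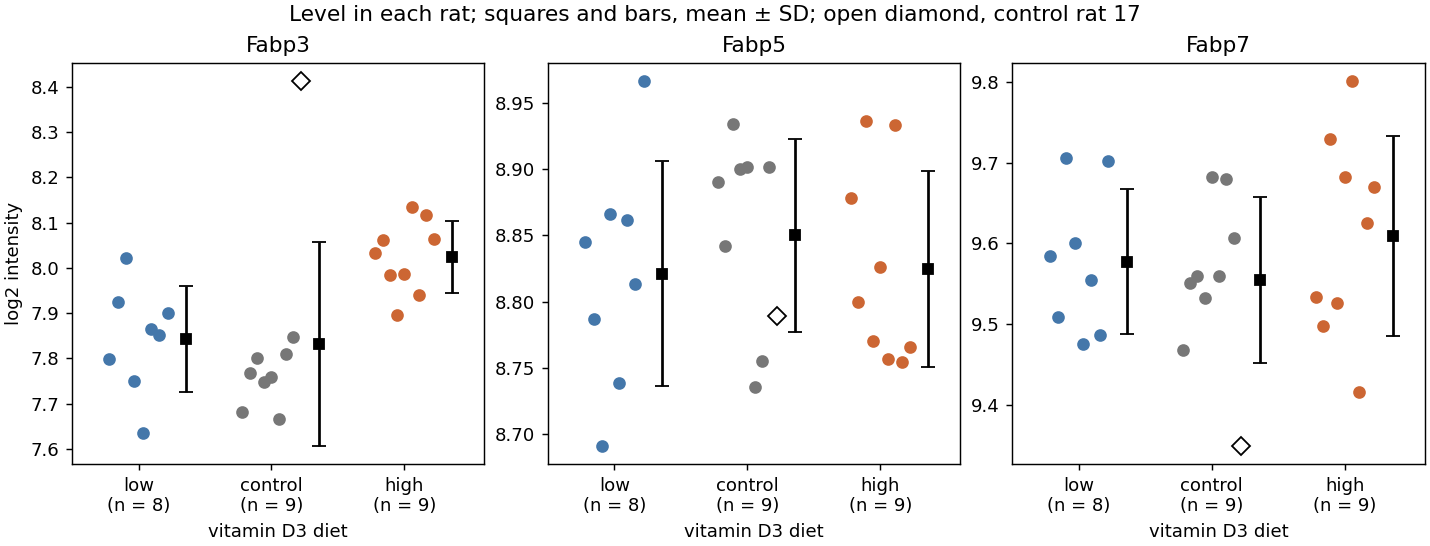
Level of Fabp3, Fabp5 and Fabp7 (y axis, log2 intensity, with a separate scale in each panel) in every rat by vitamin D3 diet (x axis); dots are rats, squares and bars are means ± SD, and the open diamond is control rat 17. For Fabp3 the high-diet rats lie between 7.90 and 8.13 and the control rats between 7.67 and 7.85 apart from rat 17 at 8.41, while the groups overlap for the other 2 genes.

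Fabp7 overlapped widely among the diets. Its level ran from 9.48 over a median of 9.57 to 9.71 on low, from 9.35 (rat 17) over 9.56 to 9.68 on control, and from 9.42 (rat 24) over 9.63 to 9.80 (rat 23) on high. The 2 highest rats of the study, rats 20 and 23, were on the high diet, as was the second lowest. The means were 9.58 ± 0.09, 9.55 ± 0.10 and 9.61 ± 0.12 (SD, n = 8, 9 and 9). High minus low was +0.032 (SE 0.049) and high minus control was +0.055 (SE 0.048), or +0.029 (SE 0.046) without rat 17. Rat 17, the highest rat for Fabp3, was the lowest for Fabp7, at 0.23 log2 under the mean of the other control rats (difference -0.23).

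Fabp5 had the narrowest range of the members. Its level ran from 8.69 (rat 3) over a median of 8.83 to 8.97 (rat 8) on low, from 8.74 (rat 14) over 8.89 to 8.93 (rat 11) on control, and from 8.75 (rat 25) over 8.80 to 8.94 (rat 20) on high. Both the lowest and the highest rat of the study were on the low diet, so the groups overlapped over nearly the whole range. The means were 8.82 ± 0.08, 8.85 ± 0.07 and 8.82 ± 0.07 (SD, n = 8, 9 and 9). High minus low was +0.0033 (SE 0.037), high minus control was -0.025 (SE 0.036) and low minus control was -0.029 (SE 0.037). Leaving out rat 17 gave -0.033 (SE 0.037) for high minus control.

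Over all 8485 tested genes, limma's fits called 0% at an adjusted p below 0.17, a false discovery rate that the series design names, for high minus low, high minus control, low minus control and the F-test over the 3 diets alike. The members are among these genes, and since they were chosen by such contrasts nothing is read from that for them. An unadjusted p under 0.05 was found for 7.22%, 4.63%, 2.27% and 4.62% of all tested genes in that order. By the sign of the difference alone, 55.2% of tested genes were higher and 44.8% lower for high minus low, 50.6% and 49.4% for high minus control, and 44.1% and 55.9% for low minus control. The members had 3, 2 and 2 of 3 higher in these contrasts, which is read as no result. Leaving out each rat in turn moved high minus low of Fabp3 between 0.15 and 0.21 and high minus control between 0.17 and 0.26, with the highest value without rat 17. For Fabp5 the same contrasts stayed between -0.015 and 0.024 and between -0.040 and -0.015, and for Fabp7 between 0.0081 and 0.056 and between 0.029 and 0.079. With cage mates treated as a random block, the difference of Fabp3 between high and control was 0.19 (SE 0.07).

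**Figure D2:**
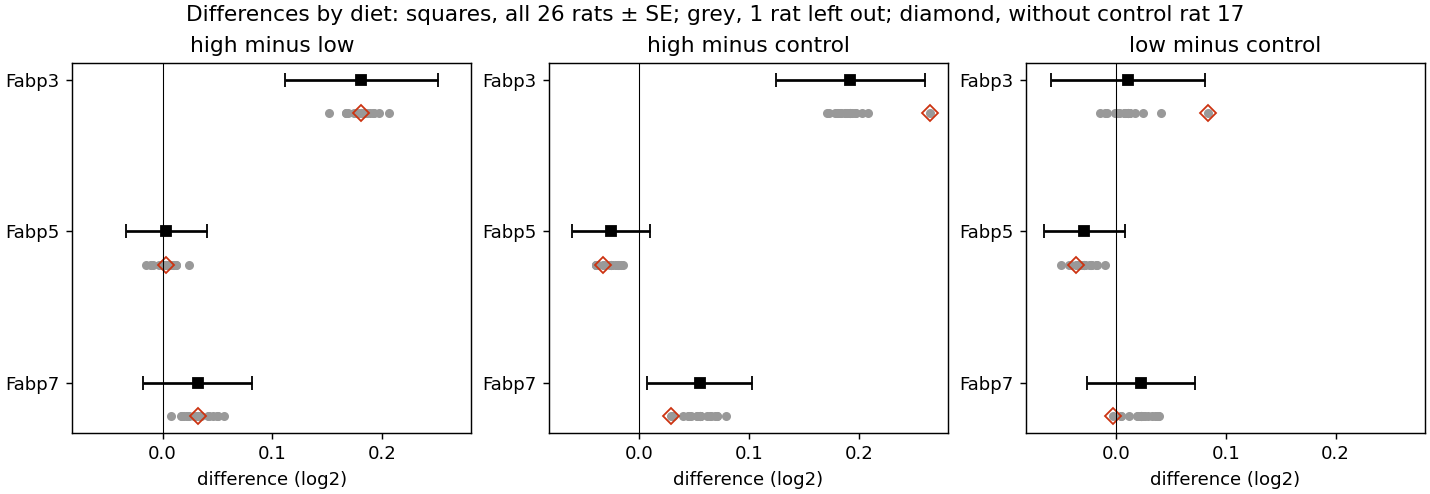
Differences between diets (x axis, log2) for the 3 genes (y axis); squares and bars are the estimates from all 26 rats ± SE, grey dots the estimates with 1 rat left out, and diamonds those without control rat 17. The differences of Fabp3 between high and the other diets lie at 0.18 and 0.19, against values between -0.029 and 0.055 for the other genes, and the diamond at 0.26 stands apart from the other dots.

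The tail mark gives a comparison that played no part in the choice of the genes. With diet in the model, marked minus unmarked was -0.066 (SE 0.056) for Fabp3, -0.0017 (SE 0.030) for Fabp5 and -0.013 (SE 0.041) for Fabp7 over 13 marked and 13 unmarked rats. None of these passed (limma adjusted p = 0.952, 0.996 and 0.986), and the share called over all tested genes was 0%, while 5.32% had an unadjusted p under 0.05. All 3 members were lower in marked rats, as were 66.2% of the tested genes, while 33.8% were higher. The marked rat was the higher of its cage in 3 of 12 cages for Fabp3 and in 5 of 12 for Fabp5 and for Fabp7. Without rat 17 the value for Fabp3 was -0.022 (SE 0.035, limma adjusted p = 0.979).

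Cage mates differed about as much as rats from different cages. The median absolute difference between cage mates was 0.11 for Fabp3, 0.085 for Fabp5 and 0.11 for Fabp7 (12 pairs). Between rats of one diet from different cages it was 0.091, 0.077 and 0.12 in that order (88 pairs). Leaving out rat 17 gave medians for cage mates of 0.087, 0.078 and 0.10 (11 pairs) and for other pairs of 0.087, 0.075 and 0.11 (81 pairs). The largest difference within a cage was 0.57 for Fabp3 and 0.26 for Fabp7, both in the cage of rats 16 and 17. These differences are a description, since the pairs share rats.

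Among rats on the same diet the spread of the members differed. The within-diet SD was 0.15 for Fabp3, larger than that of 96.5% of the tested genes, 0.077 for Fabp5 and 0.11 for Fabp7, against a median of 0.076 over all tested genes. Without rat 17 the SD of Fabp3 was 0.089, larger than that of 68.2% of genes, and that of Fabp7 was 0.099, larger than that of 78.6%. Fabp5 was near the middle both with rat 17 (51.6%) and without it (54.1%). These shares take no account of the level of a gene.

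No pair of the 3 genes passed a test for moving together over all 26 rats. After removal of the diet means, Pearson's r over 26 rats was -0.211 for Fabp3 and Fabp5 (permutation p = 0.314), -0.0912 for Fabp3 and Fabp7 (permutation p = 0.667) and -0.0181 for Fabp5 and Fabp7 (permutation p = 0.931), with an adjusted p of 0.931 for each of the 3 pairs. Spearman's rho was -0.199 (permutation p = 0.327), 0.232 (permutation p = 0.251) and 0.00239 (permutation p = 0.992) in that order. Without the 2 rats farthest from the median of the first gene, r was 0.0475, 0.352 and -0.0334. Cage mates count as separate rats in these permutations. With each of the 14 cages reduced to its mean, r was -0.211, 0.0613 and -0.57 (permutation p = 0.467, 0.833 and 0.0325, not adjusted).

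The relation of Fabp3 and Fabp7 turned on rat 17. Without this rat, the highest for Fabp3 and the lowest control rat for Fabp7, r was 0.511 over 25 rats (permutation p = 0.00883, adjusted p = 0.0265 over 3 pairs). The other pairs had r = -0.121 (permutation p = 0.567) and -0.103 (permutation p = 0.623) without it. With the 2 rats farthest from the median of Fabp3 left out, the r of 0.352 had an adjusted p of 0.279 by permutation. The relation thus passed in 1 set of rats, from which the extreme rat for both genes had been left out. It did not pass with all rats or without the 2 farthest. Fabp3 was itself chosen from a comparison without rat 17, and the adjustment over 3 pairs does not cover that choice. No result is therefore read from the p-values without this rat.

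The genes whose levels followed each member most closely over the 26 rats, again after removal of diet means, were found among all tested genes, and the correlations are a description without a test. For Fabp3 these were Cobl (r = 0.85), Tmem196 (0.823), Rasgef1c (0.789), Zdhhc22 (0.786) and Dlg1 (0.784), and the most opposed were Nrp1 (-0.716), Bves (-0.715) and Ampd2 (-0.712). Without rat 17 the correlations of the first 5 fell to between 0.147 and 0.513, and those of the 3 opposed genes were -0.415, -0.322 and -0.223, so the likeness was much weaker without 1 rat. Il1rapl1, a synaptic adhesion receptor of the interleukin-1 receptor family, had r = 0.781 with all rats and 0.759 without rat 17, where it ranked highest, ahead of Socs4 (0.675) and Psmg2 (0.671). These last 3 genes come from a ranking without rat 17 that was added after the data were seen.

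For Fabp5 the closest genes were Aamp (r = 0.727), Ippk (0.714), Rfesd (0.679), Herpud1 (0.674), which acts in the degradation of proteins from the endoplasmic reticulum, and Fkbp1b (0.672), a binding protein of ryanodine receptors. The most opposed were Psma3l (-0.652), the neural progenitor gene Msi1 (-0.64) and the activity-induced receptor gene Nr4a3 (-0.631). For Fabp7 the closest genes were Serinc5 (0.752), Efemp1 (0.742), Adamts9 (0.733), Lrrn1 (0.708) and Dnaaf9 (0.707), and the most opposed were Podxl2 (-0.75), Cntnap4 (-0.686) and Arfgap3 (-0.665). Without rat 17 the first 5 kept correlations of 0.659 to 0.747 for Fabp5 and of 0.627 to 0.764 for Fabp7.

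Each member was then set against the mean level of marker genes of cell types and of neighbouring regions in every rat, over 11 lists with at least 3 tested genes, which made 33 relations. Of these, 0 passed an adjusted p under 0.05. The strongest was that of Fabp7 with 9 genes of oligodendrocytes and myelin, among them Mbp, the myelin basic protein, and Cldn11, the claudin of the myelin sheath. Over 26 rats r was 0.589 (permutation p = 0.00159, adjusted p = 0.0525) and rho was 0.724 (permutation p = 6e-05, not adjusted). All 9 genes correlated positively with Fabp7. The share of all tested genes that did so is not given here, so nothing is read from such counts for any list. Without the 2 rats farthest from the median r was 0.614, without rat 17 it was 0.617, and over the means of 14 cages it was 0.805 (permutation p = 0.00056, not adjusted). The mean of the myelin list ran from 11.50 to 11.84 on low, from 11.55 to 11.82 on control and from 11.53 to 11.80 on high, so the diets overlapped throughout. For Fabp5 the smallest p was with 10 neuron genes (r = 0.401, permutation p = 0.0418, adjusted p = 0.272), and r was 0.231 without the 2 farthest rats. For Fabp3 it was with 7 microglia genes (r = -0.371, permutation p = 0.0495, adjusted p = 0.272). That r was -0.17 without the 2 farthest rats and -0.546 without rat 17.

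**Figure D3:**
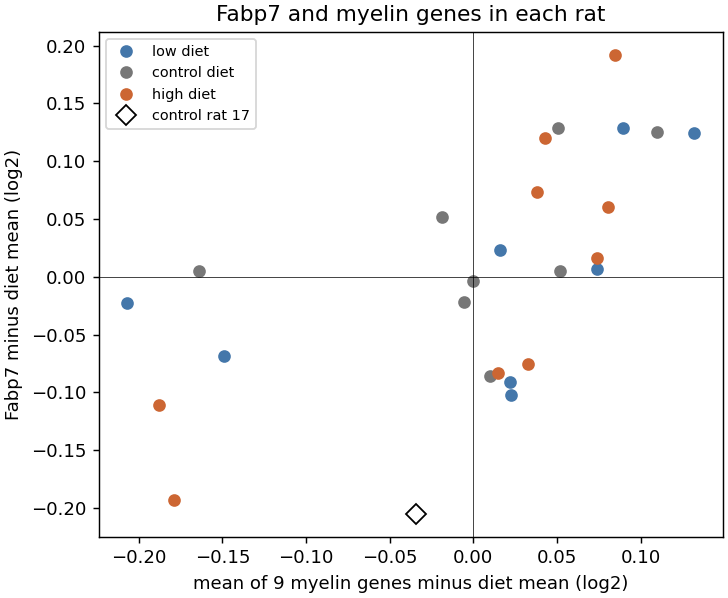
Fabp7 (y axis, log2 minus the diet mean) against the mean of 9 myelin genes (x axis, log2 minus the diet mean) in each of 26 rats, coloured by diet, with control rat 17 as an open diamond. The relation had r = 0.589 and did not pass an adjusted p under 0.05 (permutation test, adjusted p = 0.0525), and rat 17 lies lowest for Fabp7.

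Fabp7 is itself used as a marker of astrocytes and radial glia, and was set against the other markers of these cells. With 14 other astrocyte genes, among them the glutamate transporter Slc1a2 and the aldolase Aldoc, r was 0.0893 (permutation p = 0.663, adjusted p = 0.915). Here rho was 0.012 (permutation p = 0.954), leaving out the 2 farthest rats gave r = -0.0459, and 7 of the 14 genes correlated positively with Fabp7. With 9 genes of radial glia and neural stem cells, among them Vim and Hopx, r was 0.329 (permutation p = 0.0995, adjusted p = 0.469) and rho was 0.296 (permutation p = 0.141). Of these genes 6 of 9 correlated positively with Fabp7. The r was 0.119 without the 2 farthest rats, 0.489 without rat 17 and 0.611 over cage means (permutation p = 0.0199, not adjusted). With 3 genes of newborn granule neurons and dividing cells, including Neurod1 and Dcx, r was -0.54 (permutation p = 0.00412, adjusted p = 0.068). Here rho was -0.534 (permutation p = 0.00516), and leaving out the 2 farthest rats gave r = -0.461. The list is short, and 1 of its 3 genes went the other way, with a positive correlation. With 5 genes of oligodendrocyte precursors, all of which correlated positively with Fabp7, r was 0.434 (permutation p = 0.0268, adjusted p = 0.231). Here rho was 0.411 (permutation p = 0.0383), and leaving out the 2 farthest rats gave r = 0.361. Over cage means this r was 0.765 (permutation p = 0.0017, not adjusted). With 4 markers of neighbouring cerebral cortex, all of which correlated negatively with Fabp7, r was -0.43 (permutation p = 0.028, adjusted p = 0.231) and rho was -0.59 (permutation p = 0.00154). This r was -0.457 without the 2 farthest rats, -0.383 without rat 17 and -0.673 over cage means (permutation p = 0.00854, not adjusted). The part of cortical RNA in the relation of Fabp7 and myelin genes was not tested. Whether the myelin relation differs from the astrocyte relation was not tested.

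Some marker lists had means that differed in sign by diet beside Fabp3, and 0 of their genes were called. Of 8 listed markers of neighbouring cortex, 4 had a probe set and were tested. Whether these 4 mark cortex in this tissue was not tested. All 4, including the transcription factor genes Nr4a2 and Etv1, had higher means on high than on low and on control. The median differences were 0.11 and 0.12, against medians of 0.0053 and 0.00043 over all tested genes, and 0 of the 4 were called in either. The mean of the list lay between 10.46 and 10.62 on low, between 10.42 and 10.65 on control and between 10.44 and 10.75 on high. The medians were 10.55, 10.56 and 10.70 in that order. The low end on high was rat 25 alone, and the next high-diet rat, rat 22, was at 10.58. Among rats on the same diet, Fabp3 and this list had r = 0.0365 (permutation p = 0.857, adjusted p = 0.915) and rho = -0.117 (permutation p = 0.568). The sign of r varied, with 0.109 without the 2 farthest rats, -0.257 without rat 17 and -0.438 over cage means (permutation p = 0.12, not adjusted). Of all tested genes, 49.4% were lower on high than on control and 44.8% lower than on low. All 7 tested endothelial markers had lower means on high than on control (median -0.097) and 6 of the 7 lower than on low (median -0.072), and all 4 markers of pericytes and smooth muscle were lower than on either (medians -0.057 and -0.078), with 0 called. Of the radial glia markers 8 of 9 were lower than on control and 7 of 9 lower than on low (medians -0.036 and -0.049). Of the interneuron markers 6 of 6 were higher than on control and 5 of 6 higher than on low (medians 0.037 and 0.078). The 1 tested marker of choroid plexus, the thyroid hormone carrier gene Ttr, differed by -0.52 (SE 0.66) from control and -0.28 (SE 0.68) from low, and 0 genes of these lists were called either. The endothelial mean lay between 8.15 and 8.29 on low, 8.18 and 8.33 on control and 8.11 and 8.25 on high. The part of these cells and regions in the level of Fabp3 by diet was not tested. Of 10 markers of striated muscle, where Fabp3 is also abundant, 1 passed the filter, the skeletal actin gene Acta1, with a difference between high and low of -0.0099 (SE 0.034). Ckm, the muscle creatine kinase gene, had a mean of 6.41 on control and 6.45 on high, under the filter.

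**Figure D4:**
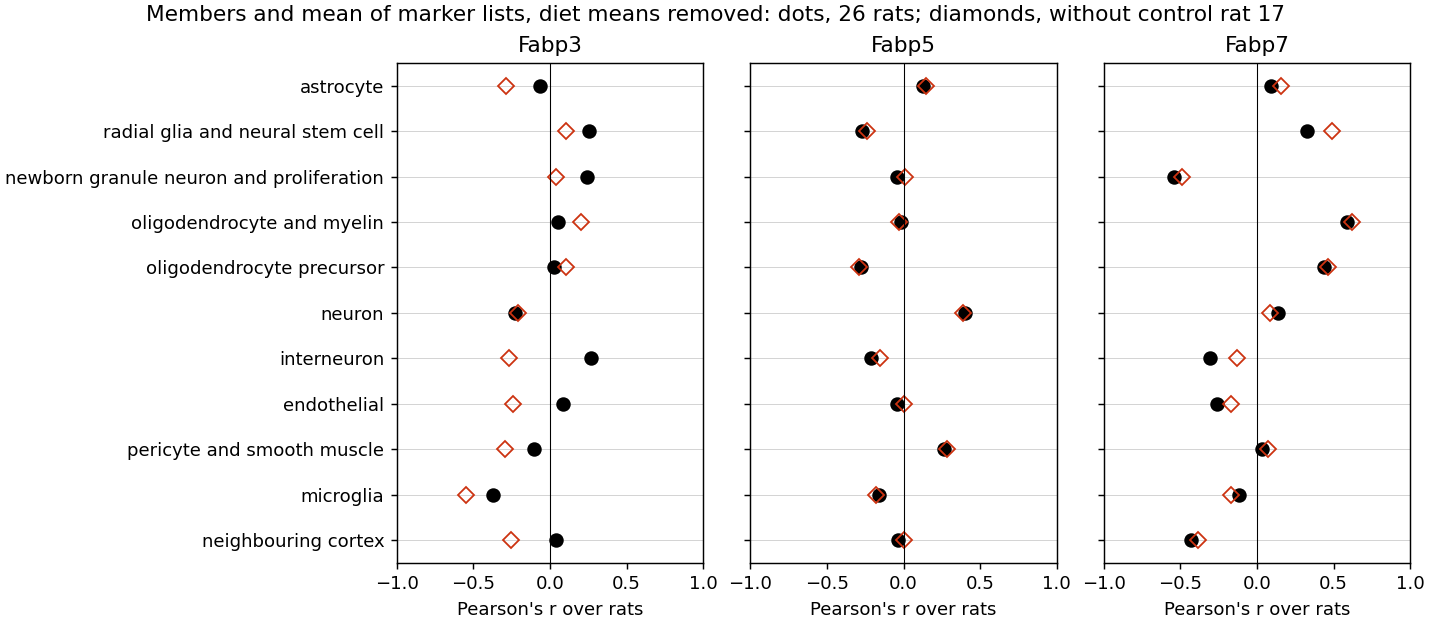
Pearson's r (x axis) between each member and the mean of each of 11 marker lists (y axis), after removal of diet means; dots are from 26 rats and diamonds from 25 rats without control rat 17. The dot of Fabp7 with the myelin list lies farthest right, at 0.589, and leaving out rat 17 moves the points of Fabp3 more than those of Fabp5.

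Most probe sets of the wider family of lipid binding proteins fell under the filter. Since probes differ in brightness, this is not read as absence of their RNA. Of 13 listed relatives 12 had a probe set, and 10 of these, among them the liver, intestinal and adipocyte types Fabp1, Fabp2 and Fabp4 and the myelin protein gene Pmp2, had means between 4.89 and 5.64, under the filter. The 2 that were tested are carriers of vitamin A compounds. Crabp1, which binds retinoic acid in the cell, had means of 8.39 ± 0.06, 8.42 ± 0.11 and 8.44 ± 0.08 on low, control and high (SD, n = 8, 9 and 9), and Rbp4, the retinol carrier of blood, had 8.11 ± 0.05, 8.10 ± 0.08 and 8.04 ± 0.11. Neither passed in the F-test over the diets (limma adjusted p = 0.998 for both).

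Genes that act on the fatty acids carried by these proteins were taken from 6 lists, and 0 of their tested genes were called in any contrast, against 0% of all tested genes. For high minus low, 5 of 11 genes that take up and activate fatty acids were above 0 (median -0.013). Acsl4, which activates arachidonic acid, differed by 0.042 (SE 0.026), the lipase Lpl by 0.10 (SE 0.05), and Mfsd2a, which carries docosahexaenoic acid across the blood-brain barrier, by -0.11 (SE 0.06). Of the enzymes that make, lengthen and desaturate fatty acids, 11 of 13 were above 0 (median 0.034). Elovl6 differed by 0.067 (SE 0.037), Fads2 by 0.050 (SE 0.029) and Elovl2 by -0.049 (SE 0.038), and against control 8 of 13 were above 0 (median 0.0093).

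A list of nuclear receptors that take up ligands from binding proteins, PPARs, RARs, RXRs and their relatives, also named the coactivator gene Ppargc1a. Of its tested genes, 5 of 7 were above 0 for high minus low (median 0.018) and 3 of 7 for high minus control (median -0.0031). Rxra differed from control by 0.072 (SE 0.048), Rara by 0.045 (SE 0.035) and Ppara by -0.064 (SE 0.057). Of 9 known targets of PPARs, 4 were above 0 for high minus low (median -0.0070). The lipid droplet gene Plin2 differed by 0.098 (SE 0.055), the fatty acid oxidation genes Acadvl and Cpt1a by -0.062 (SE 0.031) and -0.021 (SE 0.033), and Pdk4, chosen after its value was seen as the target farthest from 0, by -0.23 (SE 0.20).

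In the oxidation of fatty acids 10 of 21 genes were above 0 (median -0.0020). The dehydrogenases Acadm and Acadl, for medium and long chains, differed by 0.11 (SE 0.04) and -0.031 (SE 0.029). Among genes of arachidonate and endocannabinoid turnover 7 of 16 were above 0 (median -0.011), and the prostaglandin synthase genes Ptges2 and Ptges3 differed by 0.091 (SE 0.041) and 0.028 (SE 0.031) and the phospholipase gene Pla2g6 by 0.018 (SE 0.026). For comparison, the median difference between high and low over all tested genes was 0.0053.

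**Figure D5:**
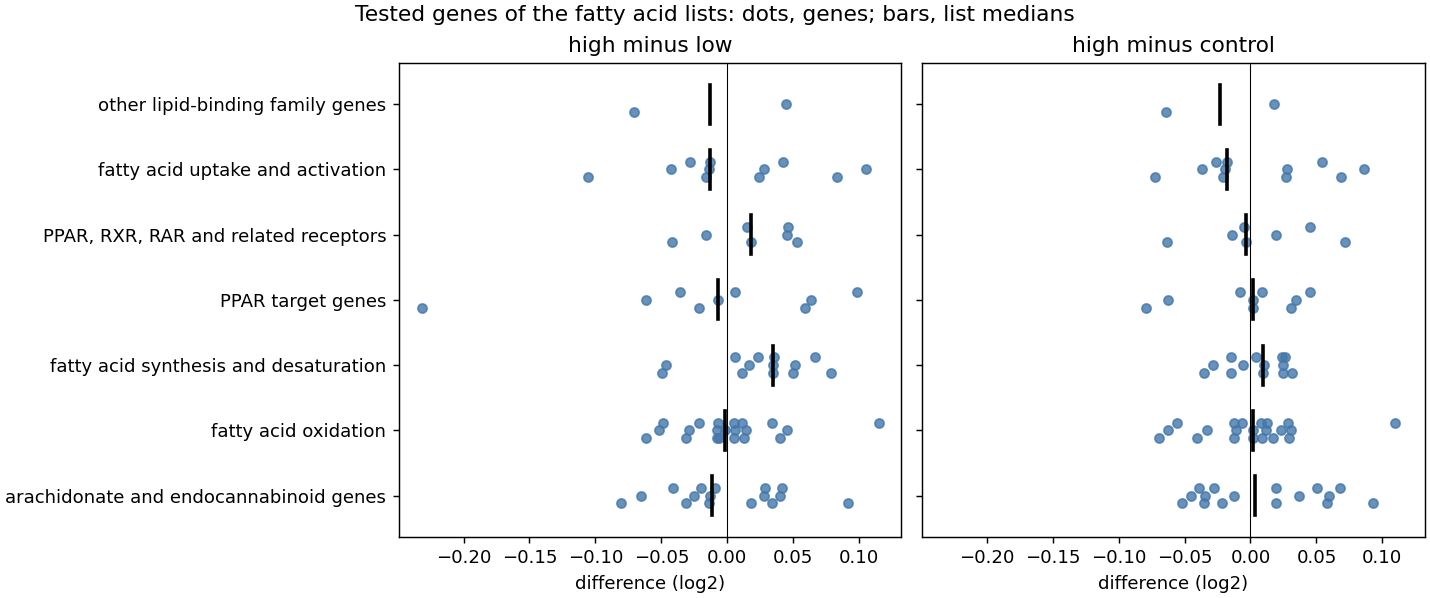
Differences of high minus low and high minus control (x axis, log2) for every tested gene of the family list and 6 fatty acid lists (y axis); dots are genes and bars are list medians. The medians lie between -0.013 and 0.034 for high minus low, and the enzymes of synthesis and desaturation have 11 of 13 dots above 0 there.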

How the data were processed

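Hippocampal RNA of 26 rats was measured with 1 array per rat. The deposited values are log2 intensities made by the authors. Partek 6.6 and GCRMA are named in the submitters' processing notes, which do not say what each did. The table held 29214 probe sets with 0 missing values, no 2 arrays were identical, and no further normalization was applied. Symbols came from the array annotation, and the highest-mean probe set stood for each gene. All 8485 tested genes entered each limma fit (version 3.58.1, R 4.3.3) with Benjamini-Hochberg adjustment, and the procedure was tested on simulated data. Correlations used 100000 permutations, two-sided. The number of arrays limits precision. The members, gene lists and tests were chosen with earlier results of these data known, and the marker relations were added after the data were seen. Named genes were the members, tested relatives, the 3 genes of smallest F-test p per fatty acid list, the 5 closest and 3 most opposed genes per member, and the 2 brightest markers of lists set beside a result. Alternatives covered filters, scaling, cage blocks, weights, priors, the tail mark, extreme values, thresholds and each rat left out. Cage mates carry the same cage number, so the cage was the block. Serum vitamin D, RNA quality and behaviour were not analysed here.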

Additional observations from a re-analysis of the deposited data

Results flagged for a closer look

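Single rats stood apart from the rest of their diet group in some of the genes named here, judged by the gap to the nearest rat relative to the whole range of the group. Chance flags about 1 in 20 such groups. Here 102 groups of 1 gene on 1 diet were examined, over 34 genes, and 9 held a rat apart. Fabp3 was 8.41 in control rat 17, with the next control rat at 7.85, which is no separate result because the gene was chosen by a comparison without that rat. The same rat was lowest of its group for Lpl (9.34, next 9.66) and Neurod1 (10.3, next 10.6) and highest for Acadl (9.25, next 9.12). Other rats that stood apart were low rat 7 for Rara (7.99), high rat 18 for Acadl (8.87), high rat 19 for Vim (11.4) and Dcx (9.41), and high rat 22 for Hopx (9.63). The causes of these values were not tested.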

How the results depend on the processing

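The differences of the 3 genes between diets moved by less than 1 within-diet SD under every alternative run for them. This is a loose measure, since that SD is 0.15 for Fabp3, close to its differences of 0.18 and 0.19. Some signs changed within it. Over rats left out, low minus control of Fabp3 ran from -0.014 to 0.084 and high minus low of Fabp5 from -0.015 to 0.024. The number of genes called among all tested genes was 0 in each comparison. With values more than 2 SD from a gene's diet mean left out, it was 17 for the F-test, 30 for high minus low and 15 for high minus control. For the members this removes 1 value, Fabp3 in control rat 17. Fabp3 was then among the genes called in each of these 3 comparisons. Nothing is read from that, since the members were chosen by such contrasts. High minus low called 1 gene with quantile normalization, 1 after centring arrays on their median, 1 with the tail mark as a covariate and 2 at an adjusted p under 0.31, none of them a member. Leaving out each rat in turn gave 0 to 3 genes for the F-test and for high minus low, and 0 to 1 for high minus control and for the tail mark. Without rat 17 the F-test and high minus control each called 1 gene, which is Fabp3 and restates the choice of the set, so it is no separate result, and high minus low called 2 that are no members. Without high rat 25 these 3 comparisons called 3, 1 and 3 genes, high minus low called 2 without low rat 2 and 1 without low rat 3 or high rat 22, and the tail mark called 1 without high rat 21, none of them a member. The tail mark difference of Fabp5 reversed to 0.0095 with quantile normalization and 0.0020 after centring, and over rats left out it ran from -0.011 to 0.012, and that of Fabp7 from -0.030 to 0.0059. With cage as a fixed block the tail mark differences were -0.077, -0.0075 and -0.0050 for Fabp3, Fabp5 and Fabp7, and no call changed. The correlation of Fabp3 and Fabp7 reversed to 0.0613 over cage means, 0.0323 without removal of diet means, 0.352 without the 2 farthest rats and 0.511 without rat 17, and ran from -0.171 to 0.511 over rats left out. That of Fabp5 and Fabp7 reversed to 0.0041 with quantile normalization and ran from -0.145 to 0.122 over rats left out, and that of Fabp3 and Fabp5 reversed to 0.0475 without the 2 farthest rats. The relation of Fabp7 with astrocyte markers reversed to -0.0459 without the 2 farthest rats, and that of Fabp3 with cortical markers to -0.257 without rat 17 and -0.438 over cage means. The causes were not tested.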
